A study of Mus musculus with 5 samples.

Results

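Cholesterol is made from acetyl-CoA by a chain of enzymes that runs through mevalonate, the isoprenoid diphosphates, squalene and lanosterol. The transcription factor SREBP2 drives nearly all of these enzymes when sterol in the endoplasmic reticulum is low. When sterol is high, the escort protein SCAP and its anchors INSIG1 and INSIG2 hold SREBP2 back, while oxysterols activate the LXR receptors, whose targets export sterol from the cell. The 31 genes described here were taken from the deposited table by gene name, 31 of 53927 genes. They comprise 18 synthesis enzymes, 4 genes of SREBP2 control, 3 of sterol transfer, 2 LXR receptors, 3 LXR targets and 1 esterification enzyme.

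RNA came from cultured nephron progenitors (primary cells that renew themselves in the embryonic kidney and give rise to nephrons), isolated from mouse embryos of strain C57BL/6J and passaged 1 time in culture. Cells with no intact copy of Dis3l2 (Dis3l2-/-, KO, 3 libraries) were compared with Dis3l2+/+ cells (WT, 2 libraries). Dis3l2 encodes an exoribonuclease that degrades uridylated RNA from its 3′ end. The labels name neither the part of the gene that was removed nor the embryo's age, and do not say whether libraries of a genotype came from separate embryos, so every p-value measures the spread between these libraries, which may be technical. The comparison addresses how the transcripts of sterol supply, its regulators and its export differ in cells without Dis3l2.

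Depth ran from 19.61 to 49.25 M assigned reads in KO libraries and from 22.34 to 28.26 M in WT libraries, and levels are CPM of the effective library size. Dis3l2 itself was at 6.50, 4.93 and 4.70 CPM in KO replicates 1, 2 and 3, against 16.04 and 12.18 CPM in WT replicates 1 and 2 (log2 fold change -1.24, standard error 0.21). Its groups did not overlap, but Dis3l2 did not pass limma over all genes either (adjusted p = 0.954). KO replicate 1 was the deepest library, had the largest share of the nuclear 7SK RNA (11.87%, against 2.27% to 6.48% in the other libraries) and lay at one end of the leading principal component. By Xist and the Y-linked Ddx3y, KO replicates 1 and 2 and WT replicate 2 were XX cells, and KO replicate 3 and WT replicate 1 were XY cells. WT replicates 1 and 2 thus came from different embryos, and KO replicate 3 from another embryo than KO replicates 1 and 2. Whether KO replicates 1 and 2 came from separate embryos is not known. The 10 progenitor markers summed to between 705 and 871 CPM in KO and between 693 and 880 CPM in WT, most of it from Itga8 and Eya1. Single markers varied more: Cited1, a marker of the uncommitted progenitor, had 17.1, 4.74 and 2.73 CPM in KO, against 15.2 and 1.40 CPM in WT. Six2 had 31.9, 26.5 and 18.6 CPM in KO, against 19.0 and 18.8 CPM in WT. Its KO replicates 1 and 2 lay above both WT libraries and KO replicate 3 just below both. Of the 9 markers tested, Osr1 was the one whose groups did not overlap, with 41.5, 64.6 and 27.3 CPM in KO, against 22.3 and 19.5 CPM in WT (log2 fold change 0.97, standard error 0.33). Cited1, Six2 and Osr1 were picked with their values known. Pax2 was too low to be tested, with 0.21, 0.66 and 0.33 CPM in KO, against 0.05 and 0.18 CPM in WT. Its KO libraries also all lay above both WT libraries, on 10, 21 and 7 reads in KO and 1 and 5 reads in WT.

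Transcripts of the synthesis enzymes had lower mean levels in KO than in WT. All 18 had a log2 fold change of KO over WT below 0, with a median of -0.66 against 0.01 over all 14884 genes tested, of which 47.1% were below 0. For 12 of the 18, the 3 KO libraries were all under the 2 WT libraries, a pattern seen in 6.98% of all genes. Of the other 13 genes, only Insig1 and Stard4 did the same. For none of the 31 genes were the 3 KO libraries all over the 2 WT libraries, which held for 7.85% of all genes. No member passed limma with Benjamini-Hochberg adjustment over all genes (adjusted p = 1 for each after rounding), where 0.00672% of genes were called. At an unadjusted p under 0.05, 12 of the 31 were lower and 0 higher, and 1.27% of all genes were lower. In the authors' deposited table, 0 members had an FDR under 0.05, which 0.0315% of its rows had. The authors' deposited table gave 12 members a p under 0.05, all lower, as it did for 1.22% of the tested genes. An exact permutation test of 3 against 2 libraries cannot give a two-sided p below 0.1. The 31 genes were chosen with earlier results of these data known, so the shares above describe them and are no test. The enzymes also varied together across libraries, so their counts are not independent observations.

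Because SREBP2 is known to act on its targets through their promoters, 3 promoters are shown. Each window holds 250 bases before and 50 after the transcription start (RefSeq, GRCm38.p6), 5′ to 3′ on the gene's strand. The capitals mark the sterol regulatory element letters TCACNCCAC, which SREBPs bind, and CCAAT, the box bound by NF-Y, a known partner of SREBPs, on either strand, so that ATTGG is a CCAAT box on the other strand. Hmgcs1 (chr13:119690101-119690400, plus strand) is shown as the enzyme window with the letters TCACNCCAC. Msmo1 (chr8:64733529-64733828, minus strand) is shown as an enzyme gene lower in KO, and Mvk (chr5:114444019-114444318, plus strand) as the enzyme gene nearest to no difference. The set was chosen after the motif counts and levels had been seen.
Hmgcs1: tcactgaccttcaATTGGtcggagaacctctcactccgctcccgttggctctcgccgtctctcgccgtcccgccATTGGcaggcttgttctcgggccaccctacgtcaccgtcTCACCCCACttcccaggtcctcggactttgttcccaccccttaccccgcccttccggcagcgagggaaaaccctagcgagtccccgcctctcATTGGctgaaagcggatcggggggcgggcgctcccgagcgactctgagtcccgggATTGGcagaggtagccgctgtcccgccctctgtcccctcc
Msmo1: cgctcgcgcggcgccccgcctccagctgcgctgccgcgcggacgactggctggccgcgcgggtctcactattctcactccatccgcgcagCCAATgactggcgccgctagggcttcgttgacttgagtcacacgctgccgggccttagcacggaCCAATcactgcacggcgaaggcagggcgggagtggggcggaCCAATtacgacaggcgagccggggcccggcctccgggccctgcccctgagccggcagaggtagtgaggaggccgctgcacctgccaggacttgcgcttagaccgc
Mvk: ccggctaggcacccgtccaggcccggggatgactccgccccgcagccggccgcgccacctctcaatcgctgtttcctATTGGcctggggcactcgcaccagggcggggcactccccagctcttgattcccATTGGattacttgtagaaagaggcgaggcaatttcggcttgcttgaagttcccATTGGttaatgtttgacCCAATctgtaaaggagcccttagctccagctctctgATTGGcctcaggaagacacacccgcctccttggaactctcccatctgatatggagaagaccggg

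In Hmgcs1 the element begins 137 bases before the start, among 4 CCAAT boxes. Msmo1 has 3 CCAAT boxes and Mvk has 5. Promoter entries were found for 25 of the 31 genes, among them 15 enzymes with 18 windows, and some windows of 1 gene overlap. TCACNCCAC was in 1 of these 18 windows (5.56%), against 1.24% of 32851 windows in the table. CCAAT was in 14 of 18 (77.8%), against 37.4% of all windows, and 3 or more copies were in 5 of 18 (27.8%), against 3.37%. GGGCGG, the letters of an Sp1 box, was in 15 of 18 (83.3%), against 35.7%. All motifs were searched on both strands, and among the 18 enzyme windows 0 matches of different motifs shared letters. Only exact matches were counted, so a window without TCACNCCAC can still hold a sterol element with other letters. The windows were not matched for base composition, and a match is a description of letters, not of binding. Mvk, with 5 CCAAT boxes, had the log2 fold change nearest to 0 of the 18 enzymes (-0.08).

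**Figure D1:**
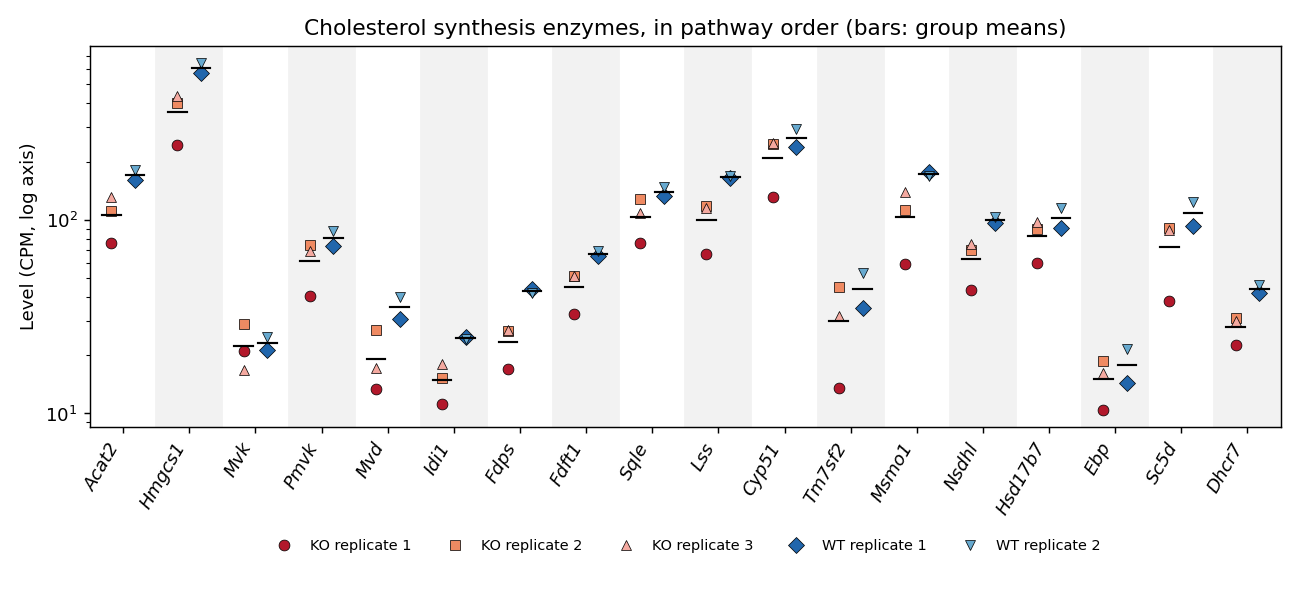
Level of each synthesis enzyme gene in CPM on a log axis, in pathway order, with KO libraries to the left of WT libraries and group means as bars. KO replicate 1, the dark red circle, is the lowest point for 17 of the 18 genes.

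The opening steps build mevalonate. Acat2, which joins acetyl units, had 75.8, 111 and 131 CPM in KO replicates 1, 2 and 3, against 161 and 181 CPM in WT replicates 1 and 2. Its groups did not overlap, and its log2 fold change was -0.72 (standard error 0.23). Hmgcs1, the HMG-CoA synthase, had 244, 401 and 436 CPM in KO, against 574 and 643 CPM in WT. Its mean was 360.4 ± 103 CPM in KO (SD, n = 3) and 608.5 ± 49.0 CPM in WT (SD, n = 2), so KO averaged 59.2% of WT, with a log2 fold change of -0.80 (standard error 0.26). Per kilobase of exon, Hmgcs1 had the highest level of the 31 genes in both genotypes, at 78.5 CPM per kb in KO and 132 in WT.

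Mevalonate is then phosphorylated and decarboxylated. Mvk, the mevalonate kinase, had 21.1, 28.9 and 16.8 CPM in KO, against 21.3 and 24.9 CPM in WT. Its groups overlapped, KO libraries being both the highest and the lowest of the 5. Pmvk, the next kinase, had 40.5, 74.3 and 68.9 CPM in KO, against 73.1 and 87.7 CPM in WT, with KO replicate 2 inside the WT range. Mvd, the decarboxylase that yields isopentenyl diphosphate, had 13.4, 27.0 and 17.3 CPM in KO, against 30.9 and 40.2 CPM in WT. Among all 31 genes it had the lowest log2 fold change, -0.90 (standard error 0.29), and its groups did not overlap.

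For the isoprenoid and squalene steps, from Idi1 to Lss, the groups did not overlap. Idi1, the isomerase, had 11.2, 15.3 and 18.01 CPM in KO, against 24.9 and 24.3 CPM in WT (log2 fold change -0.72, standard error 0.21). Fdps, which makes farnesyl diphosphate, had 16.9, 26.7 and 26.9 CPM in KO, against 43.7 and 42.1 CPM in WT. Fdps had a log2 fold change of -0.87 (standard error 0.22) and the smallest unadjusted p of the 31 genes (0.0056, limma). Fdft1, the squalene synthase, had 32.5, 51.4 and 51.2 CPM in KO, against 64.6 and 69.0 CPM in WT. Sqle, the squalene epoxidase and a known rate-limiting step, had 75.9, 127 and 108 CPM in KO, against 133 and 147 CPM in WT. KO replicate 2 came just under the lower WT library there, and the log2 fold change of Sqle was -0.46 (standard error 0.22). Lss, which closes the rings to lanosterol, had 66.9, 118 and 116 CPM in KO, against 164 and 169 CPM in WT (log2 fold change -0.77, standard error 0.25).

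From lanosterol onward, the genotypes overlapped for 4 of the 8 enzymes. Cyp51, the lanosterol demethylase, had 131, 245 and 249 CPM in KO, against 239 and 293 CPM in WT. Tm7sf2, a sterol reductase, had 13.6, 45.2 and 31.8 CPM in KO, against 35.2 and 53.0 CPM in WT. In both genes KO replicate 1 was the lowest library and KO replicate 2 lay inside the WT range, as did KO replicate 3 for Cyp51. The log2 fold change of Cyp51 was -0.40, and -0.10 without KO replicate 1. Msmo1, the methyl sterol oxidase, had 58.9, 113 and 139 CPM in KO, against 176 and 169 CPM in WT. Nsdhl, the X-linked decarboxylating dehydrogenase, had 43.5, 69.6 and 75.0 CPM in KO, against 96.8 and 104 CPM in WT. Neither Msmo1 (log2 fold change -0.82, standard error 0.34) nor Nsdhl (-0.71, 0.24) overlapped between genotypes.

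Among the last steps, Hsd17b7, the ketosteroid reductase, had 60.03, 89.5 and 97.2 CPM in KO, against 90.5 and 115 CPM in WT. Ebp, the X-linked sterol isomerase, had 10.5, 18.7 and 16.3 CPM in KO, against 14.3 and 21.4 CPM in WT. KO replicate 3 lay above WT replicate 1 in both, so neither gene separated the genotypes. Sc5d, the sterol desaturase, had 38.1, 90.3 and 88.6 CPM in KO, against 92.6 and 124 CPM in WT, and KO replicates 2 and 3 lay just under the lower WT library. Dhcr7, which reduces 7-dehydrocholesterol to cholesterol, had 22.7, 31.1 and 30.2 CPM in KO, against 41.7 and 46.0 CPM in WT. Its log2 fold change was -0.64 (standard error 0.17, unadjusted p = 0.00826, limma), the second smallest p of the set. Averaged over libraries, the enzymes of the chain stood at between 54.0% (Mvd) and 96.5% (Mvk) of the WT mean in KO.

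**Figure D2:**
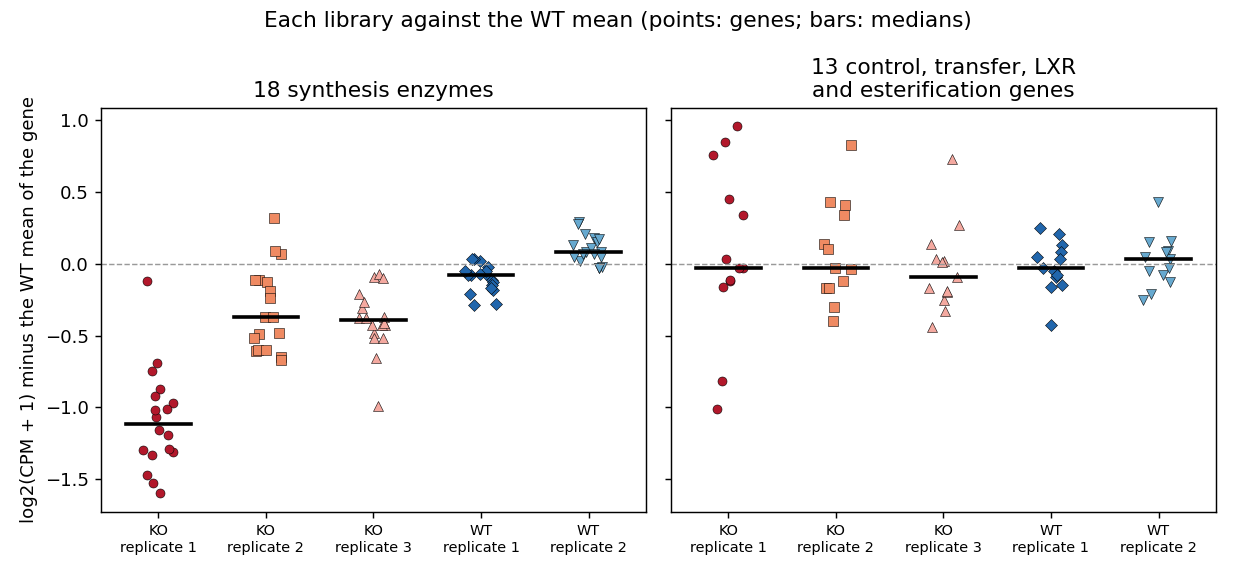
Log2(CPM + 1) of each gene minus its WT mean, for the 18 enzymes on the left and the other 13 genes on the right, with 1 column of points per library and medians as bars. The enzyme medians are -1.11, -0.37 and -0.40 in KO replicates 1, 2 and 3, and -0.08 and 0.08 in WT replicates 1 and 2.

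The enzymes did not lie equally low in the 3 KO libraries. In KO replicate 1 their levels ran from 30.8% of the WT mean (Tm7sf2) to 91.5% (Mvk), and this library was the lowest of the 5 for 17 of the 18 enzymes, against 24.3% of all genes. KO replicate 2 ran from 62.0% (Idi1) to 125% (Mvk), and KO replicate 3 from 48.6% (Mvd) to 94.6% (Hsd17b7). The 18 genes summed to 976.3, 1684 and 1716 CPM in KO replicates 1, 2 and 3, against 2076 and 2353 CPM in WT replicates 1 and 2. These sums rest on 36500 to 54005 reads in KO libraries and 44767 to 67039 in WT libraries, so counting error is small beside the differences between libraries. WT replicate 2 lay above WT replicate 1 for 15 of the 18 enzymes (44.7% of all genes) and was the highest of the 5 libraries for 14 (14.5% of all genes).

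With KO replicate 1 left out, the enzymes had a median log2 fold change of -0.42. KO replicates 2 and 3 then lay below both WT libraries for 12 of the 18, against 14.3% of all genes. When each KO library was set against the WT library of its own sex, all 3 lay lower for 14 of the 18, against 12.9% of all genes. The 2 gained by that comparison were Pmvk and Tm7sf2. The median of the enzymes was -1.20 in KO replicate 1 and -0.48 in KO replicate 2 against WT replicate 2, and -0.33 in KO replicate 3 against WT replicate 1, on log2(CPM + 1).

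Other values also differed between these libraries. The share of 7SK RNA was 11.87%, 6.48% and 2.27% in KO replicates 1, 2 and 3, against 3.83% and 3.51% in WT, and mitochondrial ribosomal RNA took 31.5%, 32.7% and 32.9% in KO, against 40.7% and 38.9% in WT. With CPM rescaled without mitochondrial RNA, 7SK and 7SL, the enzyme median was -0.73 and the groups separated for 14 of the 18, against 11.7% of all genes. The 7 adipocyte markers, genes of lipid-storing cells that such cultures could hold, summed to 7.88, 13.2 and 17.9 CPM in KO, against 53.4 and 41.9 CPM in WT, and for 5 of the 7 the groups did not overlap, KO being lower, as for 6.98% of all genes. Fabp4, a fatty acid carrier of fat cells, had 2.26, 5.65 and 8.47 CPM in KO, against 32.8 and 23.5 CPM in WT. Of the other 2, Cidec was not tested and Car3 was higher in all KO libraries (log2 fold change 0.82, standard error 0.27), and none of the 7 was at 0 in every library. The part of the adipocyte markers in the levels of the enzymes was not tested. In bulk RNA, fewer cells of a type and less RNA per cell cannot be told apart.

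**Figure D3:**
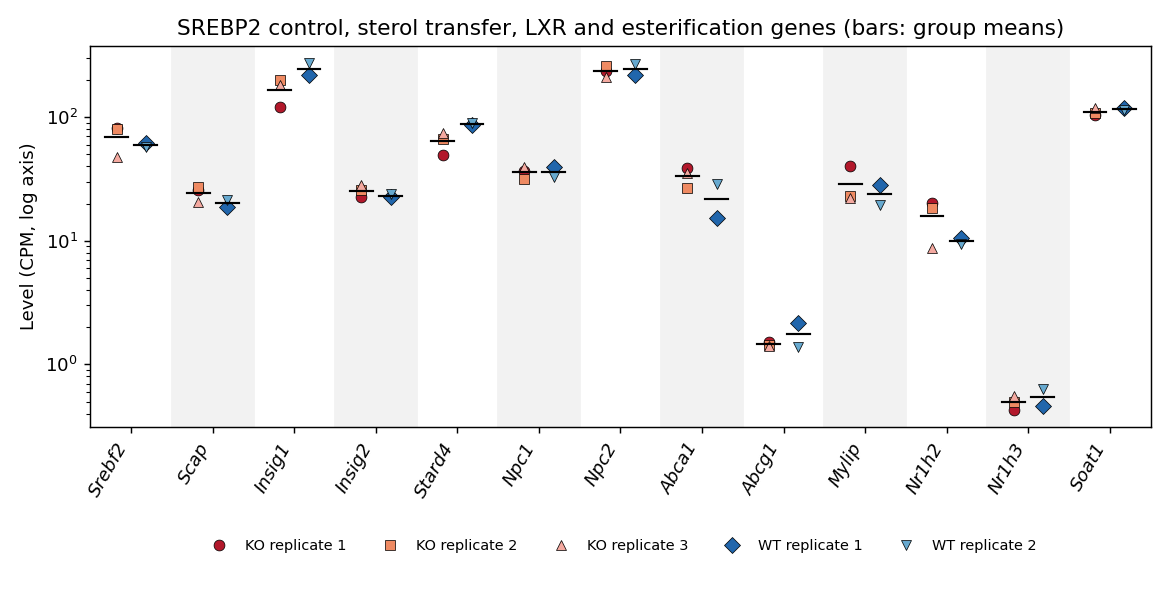
Level of each regulator, transfer, LXR and esterification gene in CPM on a log axis, with KO libraries to the left of WT libraries and group means as bars. Insig1 and Stard4 are the 2 genes whose KO points all lie under both WT points.

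Among SREBP2 and its regulators, the groups separated for Insig1 and overlapped for the other 3 genes. Srebf2, which encodes SREBP2, had 82.0, 79.6 and 47.4 CPM in KO, against 61.9 and 57.6 CPM in WT. KO replicates 1 and 2 lay above both WT libraries and KO replicate 3 below both. Scap, the escort, had 25.7, 27.3 and 20.46 CPM in KO, against 18.7 and 21.4 CPM in WT, with KO replicate 3 inside the WT range. Insig1, an anchor and itself a target of SREBP2, had 122, 199 and 181 CPM in KO, against 221 and 273 CPM in WT. It averaged 167.2 ± 40.5 CPM in KO (SD, n = 3) and 246.9 ± 36.8 CPM in WT (SD, n = 2), a log2 fold change of -0.58 (standard error 0.23) and no overlap. Insig2, the anchor known to be less dependent on SREBP2, had 22.6, 25.5 and 28.1 CPM in KO, against 22.4 and 23.9 CPM in WT, and its groups overlapped. On the CPM scale, not per length, the ratio of Insig1 to Insig2 was 5.38, 7.78 and 6.45 in KO and 9.86 and 11.4 in WT, a ratio formed after the levels had been seen.

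Of the 3 sterol transfer genes, the groups separated for Stard4. Stard4, a soluble sterol carrier that SREBP2 is known to induce, had 49.8, 66.8 and 74.1 CPM in KO, against 86.5 and 90.5 CPM in WT. Its groups did not overlap, and its log2 fold change was -0.49 (standard error 0.18). Npc1, the membrane protein that exports sterol from lysosomes, had 36.8, 31.8 and 39.7 CPM in KO, against 39.5 and 32.7 CPM in WT. Npc2, its soluble partner, had 238, 260.1 and 211 CPM in KO, against 218 and 271 CPM in WT. Both lysosomal genes overlapped between genotypes. Npc1 averaged 36.1 ± 4.02 CPM in KO (SD, n = 3) and 36.09 ± 4.83 CPM in WT (SD, n = 2). Soat1, which esterifies cholesterol for storage, had 105, 107 and 118 CPM in KO, against 119 and 114 CPM in WT, also with overlap.

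All 5 genes of the LXR branch overlapped between genotypes. Nr1h2, the widely expressed LXR beta, had 20.2, 18.5 and 8.75 CPM in KO, against 10.6 and 9.34 CPM in WT. As for Srebf2, KO replicates 1 and 2 lay above both WT libraries and KO replicate 3 below both. Nr1h3, LXR alpha, was near the detection limit with 0.43, 0.50 and 0.56 CPM in KO, against 0.46 and 0.63 CPM in WT, which is 20, 16 and 12 reads in KO and 10 and 18 reads in WT. Per kilobase, Nr1h2 stood at 4.72 CPM per kb in KO and 2.97 in WT, and Nr1h3 at 0.197 CPM per kb in KO and 0.217 in WT.

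Abca1, the LXR-induced pump that loads sterol onto lipoprotein, had 38.5, 26.9 and 35.5 CPM in KO, against 15.4 and 28.6 CPM in WT. It averaged 33.6 ± 6.05 CPM in KO (SD, n = 3) and 22.0 ± 9.36 CPM in WT (SD, n = 2), the highest log2 fold change of the 31 genes at 0.64 (standard error 0.28, unadjusted p = 0.0563, limma). KO replicate 2 lay under WT replicate 2, so the groups overlapped. That value depends on which WT library is used: the log2 fold change of Abca1 was 1.07 without WT replicate 2 and 0.21 without WT replicate 1. Abcg1, a second LXR-induced pump, had 1.53, 1.44 and 1.41 CPM in KO, against 2.18 and 1.37 CPM in WT, with all KO libraries inside the WT range. Mylip, the LXR-induced ubiquitin ligase that removes lipoprotein receptors, had 40.5, 23.1 and 22.1 CPM in KO, against 28.3 and 19.6 CPM in WT. Only KO replicate 1 lay outside the WT range for Mylip. The median of these 3 LXR targets was 0.21, against -0.66 for the enzymes, and it was -0.06 without KO replicate 1 and -0.04 without WT replicate 2.

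**Figure D4:**
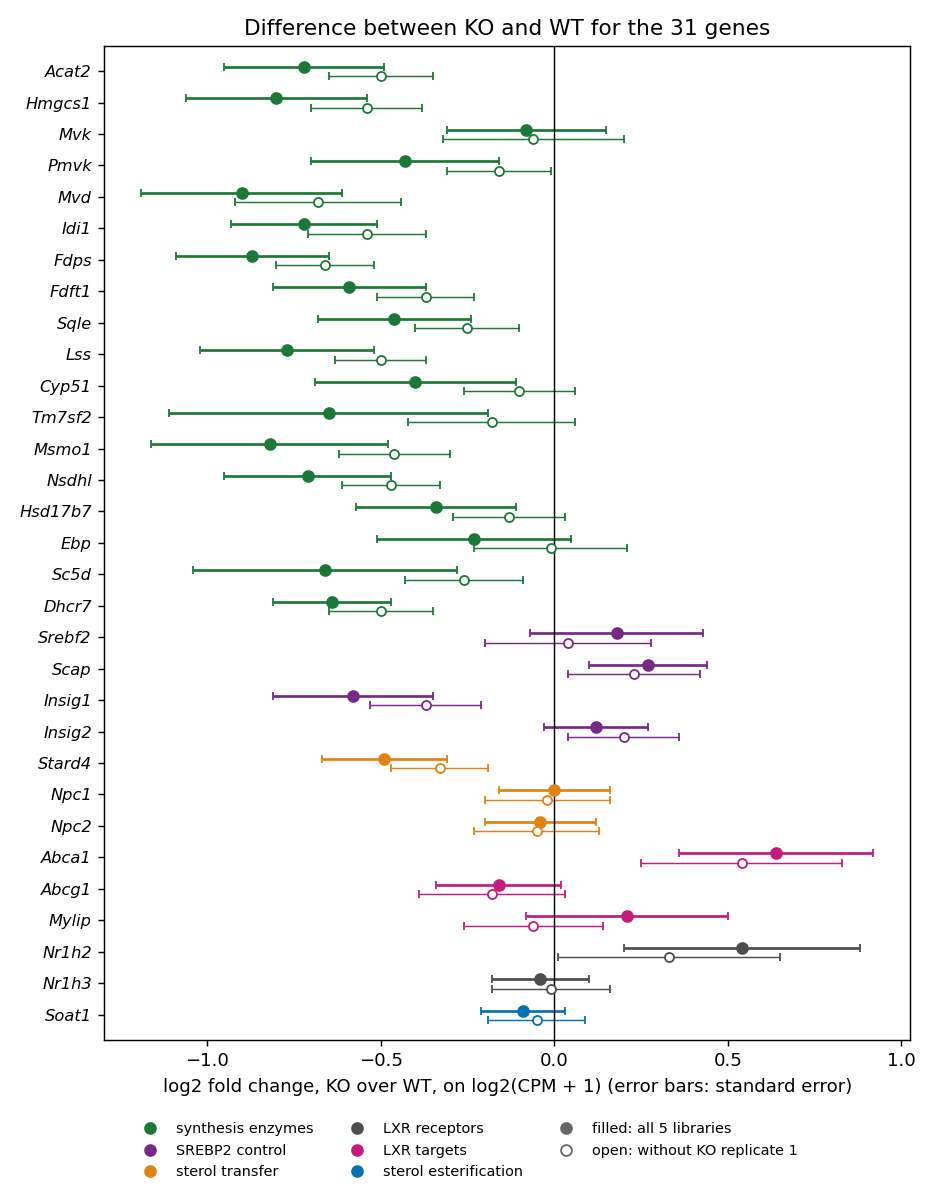
Log2 fold change of KO over WT on log2(CPM + 1) for the 31 genes, with standard errors as bars, coloured by role, filled for all 5 libraries and open without KO replicate 1. All 18 enzymes lie left of 0 in both fits, and the open points lie nearer to 0 for each of them.

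Mvd (-0.90), Fdps (-0.87), Msmo1 (-0.82), Hmgcs1 (-0.80), Lss (-0.77), Acat2 and Idi1 (-0.72 each) and Nsdhl (-0.71) had the lowest log2 fold changes of the 31 genes. Without KO replicate 1, Msmo1 was at -0.46, Lss at -0.50 and Nsdhl at -0.47, and Dhcr7, at -0.50, then lay lower than Msmo1 and Nsdhl. In the fit of all 5 libraries, with standard errors of 0.21 to 0.34, neighbours in that order did not differ beyond their error. The standard error was highest for Tm7sf2 (0.46), where the KO libraries ran from 13.6 to 45.2 CPM, and lowest for Soat1 (0.12).

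Other genes around the pathway were compared through 4 lists with 57 different genes, of which 54 were tested, 0 were called with limma over all genes and 1 had an unadjusted p under 0.05. Their median log2 fold change was 0.04, in 3 the KO libraries were all under the 2 WT libraries (5.56%) and in 4 all over them (7.41%), both near the shares over all genes. That 1 gene was Scarb1, which encodes a receptor for lipoprotein cholesterol, with 10.8 ± 3.01 CPM in KO (SD, n = 3) and 19.0 ± 7.06 CPM in WT (SD, n = 2), a log2 fold change of -0.75 (standard error 0.30) and no overlap. Among the 17 sterol carriers and hydrolases it stood with Gramd1b (-0.31) and Laptm4b (-0.25) as the genes with the smallest p, and the list median was 0.01.

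The 14 partners of SREBP processing and of sterol-regulated degradation had a median of 0.13. Vcp, the ATPase that draws proteins out of the membrane for degradation, had 206 ± 9.79 CPM in KO (SD, n = 3) and 173 ± 1.71 CPM in WT (SD, n = 2), a log2 fold change of 0.24. In 4 of these 14 genes the KO libraries were all over the 2 WT libraries, against 7.85% of all genes. They were Vcp, Ube2g2 (0.29), Erlin2 (0.25) and Ubxn8 (0.08), and no gene of the other lists did the same. Ubxn8 was named after its values had been seen. The 17 isoprenoid branch and prenylation genes had a median of 0.03, with Rce1 (0.30), Dolk (0.18) and Zmpste24 (0.19) showing the smallest p. Of the 10 oxysterol and other LXR-linked genes 7 were tested, with a median of 0.07. Scd1, a desaturase gene under SREBP and LXR control, had a log2 fold change of -0.48 (standard error 0.37), Srebf1, an LXR target that encodes SREBP1, of 0.32, and Cyp39a1, an oxysterol hydroxylase, of 0.30, each with overlapping groups.

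For some genes part of the reads is uncertain, because no source used here says whether strand was used in counting. Exons on the opposite strand cover 18.3% of the exon bases of Fdft1 (shared with Ctsb), 13.2% of Scap, 12.1% of Hmgcs1 and 9.2% of Idi1 in GENCODE M21 (GRCm38), and 5.3% or less of the others. On the same strand, another gene model shares 26.7% of the exon bases of Fdps and 12.1% of those of Tm7sf2 (shared with Vps51), and 1.4% or less for the others. Acat2 has a close paralogue in the mouse, Acat3, and reads that match both can be split or dropped.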

How the data were processed

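Per the labels' protocols, total RNA treated with DNase on the column went into a stranded kit and single-end HiSeq2500 sequencing. mm10, edgeR 3.20.1, featureCounts and HISAT2 2.1.0 are named in the submitters' processing notes. Settings for strand, multiply matching reads and annotation: not given in the sources used here. The deposited signal of each library is a CPM value to 2 decimals, relative to an effective library size as its steps show. The authors' comparison columns hold a log2 fold change, a mean log2 CPM, the score of a likelihood ratio test, a p-value and an FDR.

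Low values lie on steps of 1 read, which gave the depth. Of the nonzero values below 100 CPM, 100% in each library matched a whole number of reads to 0.0055 CPM, where 23.4% to 51.6% would by chance. A stricter rule, asking for whole reads to 0.1 in 95% of values of at most 20 reads, was met by WT replicate 1 and missed by the other libraries (45.0% to 94.8%), so no count test was run. A level of 3 reads is 0.0639 to 0.141 CPM, which covers counting error only.

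Genes that reached 0.5 CPM in 2 or more libraries were tested (14884, including all 31 members) with limma 3.58.1 (trend option, R 4.3.3) on log2(CPM + 1) in all 5 libraries, genotype being the sole term, two-sided, Benjamini-Hochberg adjusted over all of them, threshold 0.05. Fold changes on this scale understate those of low genes. Levels per kb divide CPM by the exon bases of GENCODE M21, where all 31 genes matched. The procedure was tested on simulated data with known changes. The noise of that simulation was not matched to these libraries, so it does not show how many changes could be found here. Members, lists and alternatives were chosen with earlier results of these data known. Alternatives were other pseudocounts, no filter, other scalings, a sex term, a replicate block and leaving out each library. Some other genes of the pathway are not reported here. All members are named, as are up to 3 genes of each other list with the smallest p. Other markers of liver, endothelium, epithelium, podocytes, leukocytes, stroma and steroid-making cells were read as checks.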

Additional observations from a re-analysis of the deposited data

Results flagged for a closer look

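For 8 of the 31 genes (25.8%), the XX and XY libraries lay on opposite sides. Both KO libraries of XX cells lay on one side of their WT library, and the XY KO library lay on the other side of its own. This held for 42.4% of all genes. The difference between the sexes (XY effect minus XX effect, log2(CPM + 1)) was -1.22 for Nr1h2, -0.96 for Mylip, -0.86 for Srebf2 and -0.47 for Abcg1. It was 0.76 for Cyp51, 0.75 for Ebp, 0.74 for Hsd17b7 and 0.25 for Nr1h3. In a limma fit with an interaction of genotype and sex, adjusted p ran from 0.802 to 0.869 for these 8, with Nr1h2 at the smallest unadjusted p (0.0144). That fit called 0 genes in all and gave 712 at an unadjusted p under 0.05. The XY effect rests on 1 library per genotype, and XX cells have 1 WT library, so sex cannot be told apart from other differences between these libraries.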

How the results depend on the processing

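Over 12 alternatives, 350 of 372 values of single members kept their direction and side of the threshold. The median of the enzymes stayed between -0.81 and -0.42. Of the 18 enzymes, 16 never changed sign. Calls over all genes, 1 as reported, were 0 with a pseudocount of 5, no filter, median-of-ratios size factors or a sex term, and 0 to 8 when a library was left out (5 without KO replicate 1, 8 without KO replicate 3). Members below both WT libraries, 14 as reported, were 17 when rescaled without mitochondrial RNA, 7SK and 7SL (11.7% of all genes), 18 within sex (12.9%) and 14 to 21 with a library left out (9.61% to 21.5%). Members above both WT libraries, 0 as reported, were 1 within sex (13.9% of all genes) and 1 to 3 with a library left out (11.0% to 23.5%). Signs changed for Npc1, at -0.02 with median-of-ratios size factors and -0.07 when rescaled without mitochondrial RNA, 7SK and 7SL. With a library left out, values ran from -0.28 to 0.10 for Mvk, -0.51 to 0.04 for Ebp, -0.13 to 0.13 for Npc1, -0.20 to 0.11 for Npc2, -0.37 to 0.05 for Abcg1, -0.06 to 0.47 for Mylip and -0.12 to 0.03 for Nr1h3. The cause was not tested.

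With a replicate block, 390 genes were called (2.62%), 51 of them lower (0.343%), and 5 members: Acat2 (-0.89), Hmgcs1 (-0.96), Idi1 (-0.86), Dhcr7 (-0.70) and Nr1h2 (0.90). Comparing same-numbered libraries, 22 members lay lower and 5 higher in both pairs, as did 30.4% and 35.5% of all genes. Under the block, Mvk was at 0.10, Npc1 at -0.07 and Npc2 at 0.04. KO replicate 3 has no partner, so it adds nothing to that fit. The labels do not say what the numbers share. With 2 pairs, the differences between replicates 1 and 2 in WT and in KO correlated across 14884 genes at 0.555, a hint from the data and not the design.

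Nr1h3 and Abcg1 rest on 10 to 72 reads a library, fewer than the other members.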

Other observations

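Genes for the further use of cholesterol were at low levels. Star, which carries cholesterol into mitochondria for steroid synthesis, had 1.17, 1.00 and 1.08 CPM in KO replicates 1, 2 and 3, against 1.16 and 0.95 CPM in WT replicates 1 and 2. Its log2 fold change was 0.02. Cyp11a1, the enzyme that starts steroid synthesis, was at 3 reads or fewer in every library. Cyp7a1, the rate-limiting enzyme of bile acid synthesis, and Hsd3b1, a steroid dehydrogenase gene, had 0 reads in every library, which allows up to 0.0639, 0.0936 and 0.141 CPM in KO and 0.139 and 0.105 CPM in WT.

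Ch25h, which makes the LXR ligand and SREBP2 inhibitor 25-hydroxycholesterol, had 123, 122 and 65.0 CPM in KO, against 93.9 and 84.2 CPM in WT, with a log2 fold change of 0.16 (standard error 0.29). KO replicates 1 and 2 lay above both WT libraries and KO replicate 3 below both, the order also seen for Srebf2 and Nr1h2. Ch25h was named here after its values had been seen.

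Markers of other cell types were summed per library. Renal stroma stood at 635, 990 and 712 CPM in KO, against 701 and 1100 CPM in WT, most of it from Col1a1 and Aldh1a2. Aldh1a2 had 178, 139 and 128 CPM in KO, against 323 and 244 CPM in WT (log2 fold change -0.93, standard error 0.20), and Pdgfra was also lower in all KO libraries (-0.65, 0.24). Ntn1 had 17.2, 48.6 and 40.5 CPM in KO, against 8.81 and 13.7 CPM in WT (1.48, 0.43). None of these 3 passed limma over all genes (adjusted p = 1 for each after rounding), and all 3 were picked with their values known. Endothelium stood at 36.8, 12.9 and 12.2 CPM in KO, against 19.9 and 8.58 CPM in WT, nearly all of it Kdr, while Pecam1, Cdh5 and Tie1 were at 0 to 0.78 CPM. Podocyte markers stood at 9.28, 9.80 and 6.76 CPM in KO, against 9.65 and 15.7 CPM in WT. Leukocyte markers stood at 5.69, 4.95 and 5.13 CPM in KO, against 7.65 and 7.21 CPM in WT, with Ptprc and Adgre1 at 3 reads or fewer in every library. Epithelial markers summed to at most 2.23 CPM in KO and 4.28 CPM in WT, steroid-making markers to at most 1.19 CPM in KO and 1.16 CPM in WT, and liver markers to at most 0.28 CPM in KO and 0.11 CPM in WT.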
